A study of Mus musculus with 9 samples.

Results

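The semaphorins, plexins and neuropilins are guidance cues and their receptors. All 31 genes of the family chosen by symbol (20 semaphorins, 9 plexins and both neuropilins) were found among the 47729 gene identifiers of the deposited tables. They were followed in RNA precipitated with HA-tagged ribosomes (the RiboTag) at postnatal day 28, from the dorsal striatum of mice on a C57BL/6 background. The first group of 3 libraries came from mice that carried Cre under the D1 dopamine receptor gene, floxed TrkB and the RiboTag (labelled D1-Cre-flTrkB-RT) and showed stereotypy, that is, spontaneous repetitive behavior. The second group of 3 came from mice of that genotype without stereotypy. The 3 controls (D1-Cre-RT) are labelled with Cre and the tag and no floxed TrkB, so Cre and the tagged ribosomal protein were common to all 9 libraries. TrkB is the receptor of the neurotrophin BDNF, and Cre removes it only from cells that use the D1 receptor gene, chiefly the direct-pathway medium spiny neurons (MSNs), so that other striatal cells keep it. RNA from before the precipitation was not used here, so enrichment of these cells was not measured.

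Semaphorins are ligands that steer axons and shape dendrites and synapses. Those of the Sema3 class are secreted and mostly bind a neuropilin that signals through an A-type plexin, whereas Sema3e binds Plxnd1 directly, and the other classes stay on the membrane and bind plexins. Plexins act on small GTPases and through them on the cytoskeleton. In mouse striatum, Sema3e from thalamic axons and Plxnd1 on direct-pathway neurons are known to set which thalamic inputs those neurons receive.

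The libraries held 27103152 to 40578512 reads, and levels are in CPM, reads of a gene scaled to a fixed library total. Ntrk2, the gene of TrkB, stood at 34.3 to 43.9 CPM with stereotypy, 14.1 to 23.4 CPM without it and 319 to 487 CPM in the controls. The D1 receptor gene Drd1 was abundant in every library, at 841 to 955, 515 to 655 and 684 to 866 CPM in the same order. Markers of other cells were present too. Summed markers of cortical neurons (9 genes) stood at 171 to 303, 602 to 1456 and 280 to 867 CPM and those of D2 MSNs (6 genes) at 270 to 444, 617 to 1076 and 458 to 1456 CPM. Most of the cortical sum was Slc17a7, at 117 to 208, 475 to 1140 and 218 to 658 CPM. Neurod6 of that list averaged 3.18, 8.16 and 14.2 CPM, so its mean was highest in the controls. Control replicate 3 and no stereotypy replicate 3 had the highest value of their group in both lists. Summed astrocyte markers (12 genes) stood at 643 to 668, 451 to 565 and 453 to 560 CPM, and none of these lists had a gene at 0 in all libraries. As RNA of other cells is in these precipitates, a level here is a mixture, and fewer cells of a type and less RNA per cell cannot be told apart.

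All 31 genes were measurable. Each reached 1 CPM in at least 4 libraries, and only Sema3d (4 libraries) and Sema3b (6 libraries) fell short of it in some. Levels of different genes are compared per kilobase of exon. In the controls, the GPI-anchored Sema7a stood at 77.1 ± 17.6 and the membrane ligand Sema6b at 67.9 ± 2.21 CPM per kb (SD, n = 3 each), and their ranges over libraries overlapped. Plxnd1 followed at 22.9 ± 2.48 and Sema4f at 12.2 ± 0.960 CPM per kb, each apart from its neighbours in the order. From there down the order was mostly continuous. Sema3f (7.05), Plxna2 (6.49), Sema4a (5.78) and Sema3e (5.27 CPM per kb) overlapped their neighbours, and Plxna4 stood at 3.73 CPM per kb. Both neuropilins were low, with 1.68 ± 0.651 CPM per kb for Nrp1 and 0.632 ± 0.152 CPM per kb for Nrp2. At the lower end were Plxnb3 (0.245 ± 0.0348) and Sema3d (0.0641 ± 0.0320 CPM per kb), each again apart from the gene above it. Of the genes described next as called against control, Sema4a ranked 7th, Plxna4 11th and Sema3a 16th of the 31. Sema4g ranked 24th at 0.773 ± 0.0984 CPM per kb and Sema6a 28th at 0.484 ± 0.0907 CPM per kb.

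**Figure D1:**
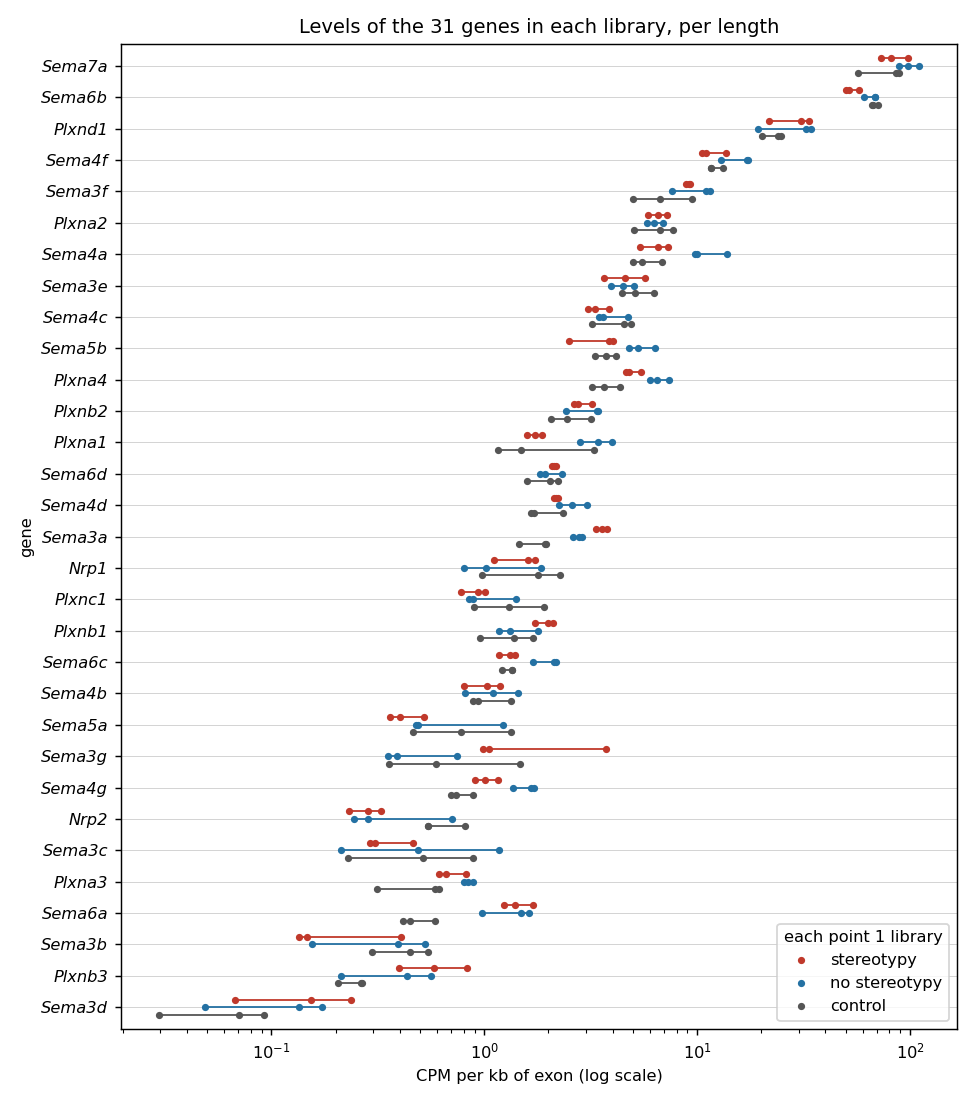
Level of each of the 31 genes per kilobase of exon (log axis) in every library, with a line over the range of each group (stereotypy above, no stereotypy below it, control lowest), ordered by the control mean. Sema7a, Sema6b and Plxnd1 lead in all 3 groups, and the libraries of both TrkB-deleted groups lie right of the controls for Sema3a, Sema6a, Sema4g and Plxna4.

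For both TrkB-deleted groups against control, 4 of the 31 genes rose and 0 fell. These were the membrane ligands Sema6a and Sema4g, the secreted ligand Sema3a and the receptor Plxna4. A gene was called where the adjusted p was under 0.05 in limma, a linear model on log2(CPM + 1), adjusted over all 13695 genes tested. Of those 13695 genes, 5.72% were called (3.67% higher and 2.05% lower), so the 4 members made 12.9% of the family. Sema6a (ENSMUSG00000019647) lies at chr18:47235598-47368870, Sema3a (ENSMUSG00000028883) at chr5:13125414-13602565, Plxna4 (ENSMUSG00000029765) at chr6:32144268-32588192 and Sema4g (ENSMUSG00000025207) at chr19:44989101-45003397, in GRCm38. In these 4 genes all 6 libraries of the deleted groups lay above all 3 controls, as they did in Plxna3, whereas 6.05% of all tested genes had that pattern and 3.25% lay below in all 6, which 0 members did. The median log2 change was 0.26 over the 31 genes and 0.04 over all tested genes.

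Taken singly, the stereotypy group had 2 members higher than control (Sema3a and Sema6a) and 1 lower (Sema6b), against 5.1% of all tested genes called (3.58% higher and 1.53% lower). The group without stereotypy had 6 members higher (Sema3a, Sema4a, Sema4g, Sema6a, Sema6c and Plxna4) and 0 lower, against 6.77% of all tested genes called (3.76% higher and 3.01% lower). These comparisons use the same 3 controls. Libraries did not overlap in 7 genes higher and 2 lower with stereotypy, against 18% and 9.72% of all tested genes. Without stereotypy this held for 9 genes higher and 0 lower, against 14.9% and 10.6%.

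**Figure D2:**
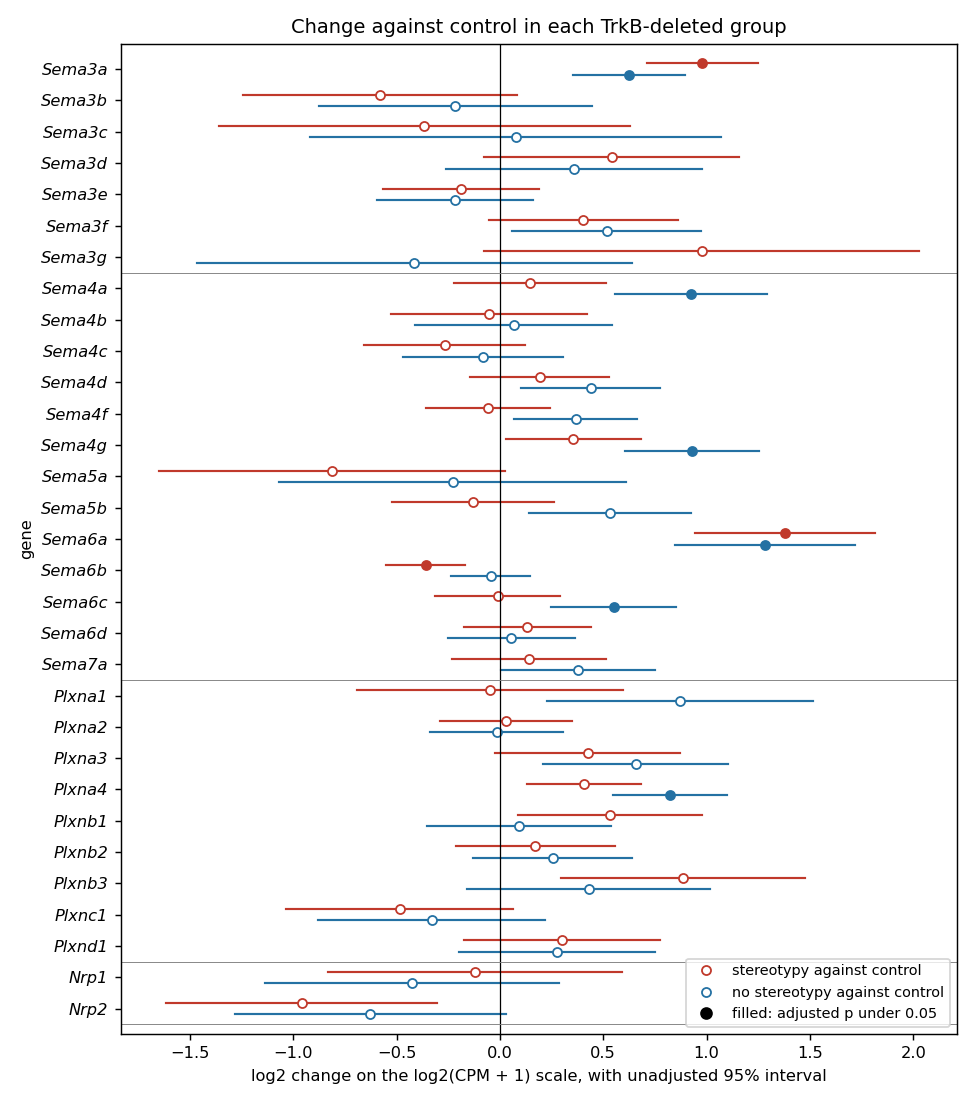
Log2 change against control on the log2(CPM + 1) scale with its unadjusted 95% interval for each gene, with stereotypy (red, upper) and without it (blue, lower), grouped as secreted ligands, membrane ligands, plexins and neuropilins from top to bottom. Filled points passed an adjusted p of 0.05: Sema3a and Sema6a in both groups, Sema6b with stereotypy only, and Sema4a, Sema4g, Sema6c and Plxna4 without it only.

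Among the secreted ligands 1 of 7 was called in any comparison. Sema3a, a repellent for many axons that acts through Nrp1 and A-type plexins, had 46.4, 49.4 and 52.1 CPM with stereotypy, 40.1, 36.2 and 38.7 CPM without it and 26.9, 20.1 and 27.1 CPM in the controls. The 3 groups did not overlap, with stereotypy highest and control lowest. The log2 change was 0.98 with stereotypy (SE 0.12, limma adjusted p = 0.00274) and 0.63 without it (SE 0.12, limma adjusted p = 0.0138). The call without stereotypy ended without no stereotypy replicate 1 (limma adjusted p = 0.0674). The difference between these changes was 0.35 (95% interval 0.09 to 0.62) and did not pass (limma adjusted p = 0.0847). Sema3f, a repellent that binds Nrp2, had the highest mean CPM of the secreted ligands over all 9 libraries (45.3, against 44.6 for Sema3e), though Sema3e was higher in the controls. Sema3f had 46.1, 48.1 and 47.5 CPM with stereotypy, 59.3, 57.0 and 39.5 CPM without it and 34.7, 49.1 and 26.1 CPM in the controls. Its groups overlapped, and its change in both deleted groups, 0.46 (95% interval 0.07 to 0.86), did not pass (limma adjusted p = 0.172). It was 0.69 and called without control replicate 2, the highest control (limma adjusted p = 0.0379), and 0.25 without control replicate 3, the lowest. Sema3e, the ligand of Plxnd1, averaged 43.1 ± 9.53, 41.7 ± 5.26 and 48.9 ± 8.42 CPM in the stereotypy, no stereotypy and control groups (SD, n = 3 each). The interval of its change in both deleted groups ran from -0.53 to 0.12. Sema3b, Sema3c, Sema3d and Sema3g averaged under 10 CPM in every group, and none of them passed.

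Over the 4 comparisons 8 of the 31 genes were called at least once, against 17.1% of all tested genes, and 6 of the 8 were among the 13 membrane ligands. Sema6a, a ligand of Plxna2 and Plxna4, had the largest change of the 31 genes in both comparisons with the control. It stood at 12.2, 14.9 and 10.9 CPM with stereotypy, 14.2, 8.60 and 13.0 CPM without it and 3.94, 3.65 and 5.15 CPM in the controls. All deleted libraries lay above all controls, and the 2 deleted groups overlapped. Its log2 change was 1.38 with stereotypy (SE 0.20, limma adjusted p = 0.00546) and 1.28 without it (SE 0.20, limma adjusted p = 0.00481), and the difference between them had an interval of -0.34 to 0.53. In mean CPM it was 2.98-fold and 2.81-fold the control.

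Sema4g, which binds Plxnb2, stood at 8.74, 9.99 and 7.82 CPM with stereotypy, 14.8, 11.8 and 14.3 CPM without it and 6.38, 6.05 and 7.67 CPM in the controls. The 3 groups did not overlap, and here the group without stereotypy was the highest. Its log2 change was 0.93 without stereotypy (SE 0.15, limma adjusted p = 0.00568). With stereotypy it was 0.36 (SE 0.15), which did not pass (limma adjusted p = 0.173). Over both groups it rose by 0.64 (SE 0.13, limma adjusted p = 0.0167), a call that ended without control replicate 1 (0.0640) or control replicate 2 (0.0526). Sema4a, a ligand known from immune cells and the retina, had 35.5, 39.2 and 29.2 CPM with stereotypy, 53.7, 53.0 and 74.8 CPM without it and 29.9, 26.8 and 37.0 CPM in the controls. The libraries without stereotypy stood above the other 6, which overlapped. Its log2 change was 0.92 without stereotypy (SE 0.17, limma adjusted p = 0.00959) and 0.15 with it (95% interval -0.22 to 0.51). Sema6c, of the same class as Sema6a, had 7.81, 8.23 and 6.97 CPM with stereotypy, 12.7, 10.03 and 12.8 CPM without it and 7.17, 7.98 and 8.03 CPM in the controls. Again the libraries without stereotypy stood above the other 6. Its change of 0.55 without stereotypy (SE 0.14, limma adjusted p = 0.0385) was less stable, with the call kept in 8 of 20 alternative analyses and log2 values of 0.43 to 0.66. It ended without each single library other than stereotypy replicate 3 and no stereotypy replicate 2 (limma adjusted p = 0.0564 to 0.160).

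Sema6b, a ligand of Plxna4 and the most abundant Sema6 gene, moved the other way. It had 227, 205 and 197 CPM with stereotypy, 272, 272 and 240.2 CPM without it and 263, 279 and 266 CPM in the controls. All 3 libraries with stereotypy lay below the other 6. It fell by 0.36 on the log2 scale against control (SE 0.09, limma adjusted p = 0.0404), a call kept in 9 of 20 alternatives with values of -0.42 to -0.29. It ended without each single library other than no stereotypy replicate 3 (limma adjusted p = 0.0546 to 0.145). Sema7a, which in mouse also signals through integrins, had 321, 268 and 241 CPM with stereotypy, 322, 365 and 292 CPM without it and 292, 188 and 284 CPM in the controls. The libraries with stereotypy overlapped the controls, and its change in both deleted groups was 0.26 (95% interval -0.06 to 0.58, limma adjusted p = 0.359). Sema5b is described with the behavior comparison. The remaining 6 membrane ligands (Sema4b, Sema4c, Sema4d, Sema4f, Sema5a and Sema6d) were called in none of the 4 comparisons.

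**Figure D3:**
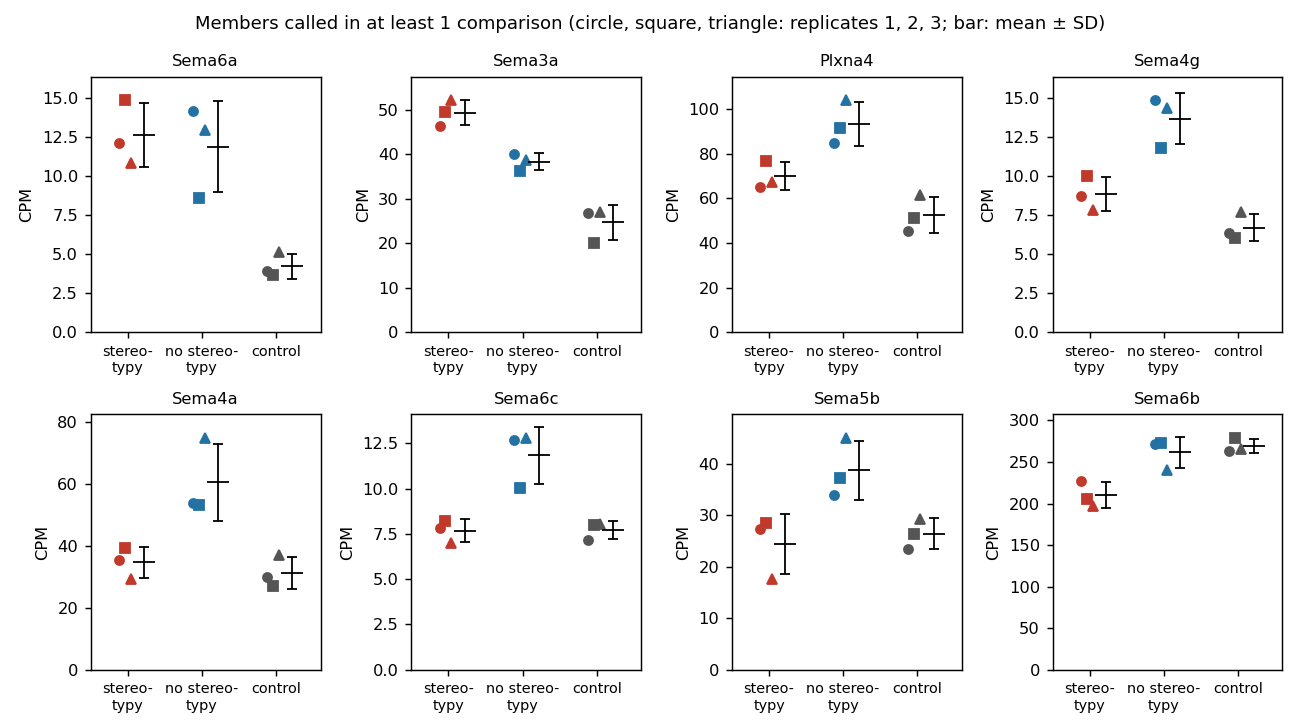
CPM of the 8 genes called in at least 1 comparison, by library (marker shape gives the replicate number) with the mean ± SD of each group of 3. Sema6a and Sema3a stand higher in both TrkB-deleted groups than in control; Sema4a, Sema6c and Sema5b stand apart in the group without stereotypy, and Sema6b stands lowest with stereotypy.

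Among the 9 plexins Plxna4, the partner of Nrp1 for Sema3a and the receptor of Sema6a and Sema6b, was called. It had 65.1, 76.9 and 67.4 CPM with stereotypy, 84.6, 91.5 and 104 CPM without it and 45.3, 51.2 and 61.3 CPM in the controls. The 3 groups did not overlap, with the group without stereotypy highest. Its log2 change was 0.82 without stereotypy (SE 0.13, limma adjusted p = 0.00465) and 0.41 with it (SE 0.13, limma adjusted p = 0.0821), and 0.61 over both groups (SE 0.11, limma adjusted p = 0.00938). The change with stereotypy passed in 3 of 20 alternatives, namely with a replicate block (limma adjusted p = 0.0490), with the other-neuron covariate (0.0211) and without control replicate 3 and no stereotypy replicate 3 together (0.0342). The same-class receptor Plxna1 had 14.4, 16.9 and 15.7 CPM with stereotypy, 31.02, 25.3 and 36.0 CPM without it and 13.4, 10.5 and 29.8 CPM in the controls. Control replicate 3 lay within the range of the group without stereotypy and the other controls below it. Its change without stereotypy was 0.87 (limma adjusted p = 0.108), and 1.29 without control replicate 3 (limma adjusted p = 0.00257). An antisense gene, Gm26811, covers 10.7% of the exon length of Plxna1, and since the use of strand in counting is not given in the sources used here, their reads may be shared.

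Plxna2 averaged 112 ± 11.9, 109 ± 9.31 and 111 ± 23.0 CPM in the stereotypy, no stereotypy and control groups (SD, n = 3 each), with an interval of -0.27 to 0.28 for both deleted groups. Plxna3 was above all controls in all 6 deleted libraries, with a change of 0.54 that did not pass (limma adjusted p = 0.107). Plxnd1, the receptor of Sema3e, had 224, 159 and 244 CPM with stereotypy, 236, 249.8 and 140.3 CPM without it and 175, 180.4 and 147 CPM in the controls. In each deleted group 1 library lay within or below the control range. Its change was 0.29 (95% interval -0.12 to 0.70, limma adjusted p = 0.43). Plxnb3 had 5.37, 3.76 and 2.58 CPM with stereotypy, 2.82, 1.37 and 3.65 CPM without it and 1.72, 1.33 and 1.72 CPM in the controls. All libraries with stereotypy lay above the controls, where its change of 0.89 did not pass (limma adjusted p = 0.0795). Plxnb3 is known from oligodendrocytes, whose 12 summed markers stood at 1227 to 2185, 788 to 1809 and 596 to 1256 CPM in the 3 groups. With the glial and vascular covariate described last the change of Plxnb3 was -0.11. That covariate pools several cell types, and the part of oligodendrocyte RNA was not tested. Plxnb1, Plxnb2 and Plxnc1 did not pass in any comparison.

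Neither neuropilin was called. Nrp1, the co-receptor of Sema3a, had 10.8, 15.7 and 16.9 CPM with stereotypy, 9.98, 7.87 and 18.1 CPM without it and 17.4, 9.59 and 22.2 CPM in the controls. The groups overlapped, and the change in both deleted groups was -0.27 (95% interval -0.89 to 0.34). Nrp2, the co-receptor of Sema3f, had 3.37, 3.89 and 2.73 CPM with stereotypy, 3.36, 2.88 and 8.35 CPM without it and 6.46, 6.42 and 9.57 CPM in the controls. Of the 6 deleted libraries 5 lay below all controls, and no stereotypy replicate 3 lay among them. Its change over both groups was -0.79 (95% interval -1.36 to -0.23, limma adjusted p = 0.107). It was called in 4 of 20 alternatives. Without no stereotypy replicate 3 it was -0.99 (limma adjusted p = 0.00984), and without that library and control replicate 3 it also passed (limma adjusted p = 0.0226). With all libraries it passed with the other-neuron covariate (limma adjusted p = 0.0256) and in DESeq2 (adjusted p = 0.0392).

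No stereotypy replicate 3 and control replicate 3 stood apart in other members as well. Sema5a had 7.52, 9.74 and 6.75 CPM with stereotypy, 9.12, 8.91 and 22.8 CPM without it and 14.5, 8.60 and 24.9 CPM in the controls. Sema3c had 2.08, 3.31 and 2.18 CPM with stereotypy, 3.49, 1.51 and 8.38 CPM without it and 3.67, 1.64 and 6.32 CPM in the controls. In both genes replicate 3 was the highest library of the control group and of the group without stereotypy. The same held for the summed markers of cortical neurons (1456 CPM without stereotypy and 867 CPM in control) and of D2 MSNs (1076 and 1456 CPM), and the part of these cells was not tested. Sema3g had 16.9 CPM in stereotypy replicate 2, against 4.48 and 4.76 CPM in the other libraries with stereotypy, 1.60 to 3.36 CPM without it and 1.61 to 6.68 CPM in the controls. In that library the 12 summed vascular markers stood at 93.3 CPM, against 36.7 and 39.2 CPM in the other libraries with stereotypy, and the tight junction gene Cldn5 at 23.5 CPM against 6.30 and 7.01 CPM. Without that library the change of Sema3g with stereotypy was 0.42 in place of 0.98, and neither passed (limma adjusted p = 0.615 and 0.240).

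**Figure D4:**
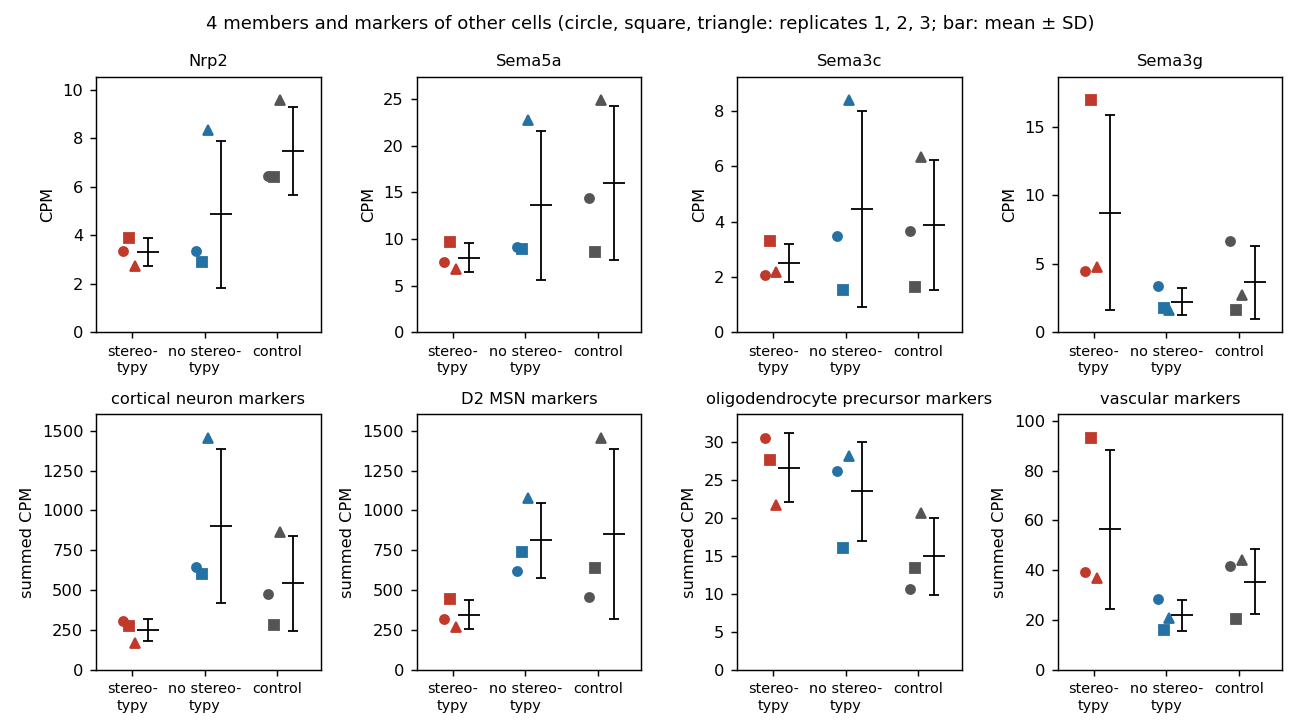
CPM of Nrp2, Sema5a, Sema3c and Sema3g (upper row) and summed CPM of marker lists of other cells (lower row) by library, with the mean ± SD of each group of 3. Replicate 3 (triangle) is the highest control and the highest library without stereotypy for Nrp2, Sema5a, Sema3c and the cortical and D2 MSN lists; stereotypy replicate 2 (square) is the highest for Sema3g and the vascular list. Precursor markers stand at 21.7 to 30.6, 16.0 to 28.2 and 10.7 to 20.6 CPM.

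Mice with stereotypy were then compared with mice of the same genotype without it. Ntrk2 itself was higher with stereotypy, by 1.05 on the log2 scale (limma adjusted p = 0.0206), a call kept in 15 of 20 alternatives. These groups thus differed in remaining Ntrk2 RNA as well as in behavior. Of the 31 genes 5 were lower with stereotypy and 0 higher, all of them membrane ligands, against 10.2% of all tested genes called (6.61% higher and 3.6% lower). Their log2 differences in limma were -0.78 for Sema4a (SE 0.17, adjusted p = 0.0249), -0.56 for Sema6c (SE 0.14, 0.0328), -0.57 for Sema4g (SE 0.15, 0.0375), -0.66 for Sema5b (SE 0.18, 0.0420) and -0.31 for Sema6b (SE 0.09, 0.0448). Sema5b, which repels axons through A-type plexins, had 27.2, 28.4 and 17.7 CPM with stereotypy, 34.0, 37.2 and 45.1 CPM without it and 23.4, 26.4 and 29.4 CPM in the controls. Its groups by behavior did not overlap, and the libraries with stereotypy overlapped the controls. Over all 31 genes, 8 were lower in every library with stereotypy than in every library without it and 2 were higher, against 17.5% and 20.8% of all tested genes. The 3 beyond the called genes that were lower were Plxna1 (-0.92, limma adjusted p = 0.0672), Plxna4 (-0.41, limma adjusted p = 0.0594) and Sema4d (-0.25, limma adjusted p = 0.304). All 5 calls ended without stereotypy replicate 2, without stereotypy replicate 3, without no stereotypy replicate 1 and without no stereotypy replicate 2, and 2 of the 5 (Sema4a and Sema6b) stayed without stereotypy replicate 1 or without no stereotypy replicate 3. In those 4 analyses with 0 members called, 9 to 11 members had an unadjusted p under 0.05. The share of all tested genes at that unadjusted p is not given here, so such counts do not set the family apart. With all libraries edgeR called 5 members among 1335 genes and DESeq2 8 among 2343. In the whole table the 1398 calls became 1, 0, 0 and 0 in the same 4 analyses and 806 without stereotypy replicate 1, and 0 members were called in limma among 572 genes where no filter on low levels was used (10 members at an unadjusted p under 0.05). A score of other-neuron markers (cortical, D2 MSN and interneuron) was -0.58, -0.38 and -1.16 with stereotypy and 0.30, 0.25 and 1.30 without it. With that score as a covariate 0 members were called in limma (13 at an unadjusted p under 0.05). The log2 differences were then -0.35 for Sema4a, -0.35 for Sema4g, -0.35 for Sema5b, -0.45 for Sema6c and -0.38 for Sema6b, the last no smaller than without it. With a score of glial and vascular markers in its place they were -1.16, -0.88, -0.94, -0.78 and -0.27 in the same order, and Sema4a and Sema4g stayed called. Of the marker genes themselves, 1 of 9 cortical, 0 of 6 D2 MSN and 2 of 11 interneuron genes were called lower with stereotypy in limma, and the summed interneuron markers overlapped, at 225 to 401 CPM with stereotypy and 375 to 588 CPM without it. Some markers of the targeted cells went the other way. Summed D1 MSN markers (9 genes) stood at 2349 to 2446 CPM with stereotypy and 1580 to 1954 CPM without it, and 2 of the 9 were called higher. Drd1 had a log2 difference of 0.57 (limma adjusted p = 0.0249), and 5 of 13 markers shared by D1 and D2 MSNs were called higher. The part of the mixture of cells in the 5 calls was not tested beyond these fits.

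The letters upstream of the start were read for members that moved. RefSeq promoters (GRCm38.p6, 250 bases before to 50 after a start) were on hand for 26 of the 31 genes. Those of 4 called genes are shown, Sema3a and Sema4g because they rose over both deleted groups, Sema4a as the called gene with the largest difference by behavior and Sema6b as the gene that fell. Sema6a and Plxna4, which also rose over both deleted groups, were among the 5 members with no promoter on hand. Where RefSeq had several starts, that nearest the annotated 5′ end was taken. The starts of Sema3a and Sema4g lie within the genes as GENCODE annotates them, which begin at chr5:13125414 and chr19:44989101. All of the letters shown for Sema3a, and all but the first few for Sema4g, thus lie inside the annotated gene. Each is read 5′ to 3′ on the strand of its gene, and capitals mark matches to the motifs named after them.
Sema3a, chr5:13396534-13396833, plus strand: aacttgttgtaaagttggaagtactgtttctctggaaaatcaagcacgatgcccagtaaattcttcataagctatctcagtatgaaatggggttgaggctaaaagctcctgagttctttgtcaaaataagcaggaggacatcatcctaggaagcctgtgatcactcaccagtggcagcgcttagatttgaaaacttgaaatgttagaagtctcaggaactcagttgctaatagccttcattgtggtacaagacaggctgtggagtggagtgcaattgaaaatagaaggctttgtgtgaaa
Sema4g, chr19:44989094-44989393, plus strand: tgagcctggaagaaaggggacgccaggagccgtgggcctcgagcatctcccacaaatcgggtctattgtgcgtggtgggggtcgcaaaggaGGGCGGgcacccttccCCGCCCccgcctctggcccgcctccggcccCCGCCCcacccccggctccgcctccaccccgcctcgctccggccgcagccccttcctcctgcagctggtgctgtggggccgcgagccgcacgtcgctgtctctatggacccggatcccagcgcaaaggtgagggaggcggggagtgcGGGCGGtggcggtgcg
Sema4a, chr3:88461133-88461432, minus strand: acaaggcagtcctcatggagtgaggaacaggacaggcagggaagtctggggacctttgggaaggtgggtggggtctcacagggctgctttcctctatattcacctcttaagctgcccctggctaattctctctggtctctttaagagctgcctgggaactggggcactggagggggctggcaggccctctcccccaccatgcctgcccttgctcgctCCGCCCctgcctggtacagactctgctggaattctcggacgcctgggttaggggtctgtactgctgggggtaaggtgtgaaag
Sema6b, chr17:56140294-56140593, minus strand: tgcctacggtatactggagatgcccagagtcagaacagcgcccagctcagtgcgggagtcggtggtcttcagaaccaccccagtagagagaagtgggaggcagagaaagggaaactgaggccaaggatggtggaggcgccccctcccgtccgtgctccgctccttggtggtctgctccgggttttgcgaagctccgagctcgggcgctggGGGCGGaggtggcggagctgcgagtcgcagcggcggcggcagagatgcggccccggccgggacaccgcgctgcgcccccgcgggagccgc

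The motifs searched on both strands were the GC box bound by Sp factors (GGGCGG), the core of the cAMP response element (TGACG), an Egr site (GCGTGGG) and an E-box (CACGTG); matches of different motifs may overlap. The capitals in the 4 promoters are all GC boxes, with 4 matches in Sema4g, 1 each in Sema4a and Sema6b and 0 in Sema3a. GC boxes were found in 20 of the 26 family promoters and in 35.6% of all 32817 promoters in the table. The promoter of Sema3a was 41.3% G and C, and that of Sema4g 73.3%. A response element core was found in 3 of the 26 (20.8% of all promoters), an Egr site in 5 (5.04%) and an E-box in 2 (7.15%). Members were read at 1 start each and the whole table at every start listed, so these shares are not of like units. The G and C content of all promoters was not measured, so the shares are not matched for it. The 5 with an Egr site were Sema4c, Sema5b, Plxna2, Plxnd1 and Nrp2, of which Sema5b was called in a comparison.

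Genes linked to these receptors were read from 5 lists (co-receptors, plexin partners, small GTPases and cytoskeletal effectors, the CRMP family with its kinases, and proteases and regulators). Of 69 genes, 66 were tested. For both deleted groups against control 5 rose and 0 fell, where 3.67% of all tested genes rose and 2.05% fell. The median log2 change was 0.10 over the 66 genes and 0.04 over all tested genes. In the list of plexin partners, where direct binding to a plexin was not checked for each gene, 2 of 15 rose. Tiam1, an exchange factor for Rac, averaged 136 ± 5.52, 147 ± 11.9 and 91.0 ± 19.2 CPM in the stereotypy, no stereotypy and control groups (SD, n = 3 each), a log2 change of 0.65 (limma adjusted p = 0.0113). Rnd1, a GTPase bound by plexins, averaged 30.8 ± 11.1, 51.3 ± 1.86 and 21.1 ± 4.23 CPM (SD, n = 3 each), a change of 0.87 (limma adjusted p = 0.0276). Dpysl5, a member of the CRMP family that carries semaphorin signals to the cytoskeleton, rose by 0.65 (1 of 10 in its list, limma adjusted p = 0.0223), and the monooxygenase Mical3, whose family acts on actin below plexins, by 0.35 (1 of 20, limma adjusted p = 0.0410). The VEGF receptor Kdr rose by 1.41 (1 of 14, limma adjusted p = 0.0153) at 2.74, 3.31 and 0.445 CPM on average, a gene also in the vascular marker list. The summed list stood at 36.7 to 93.3, 16.0 to 28.5 and 20.2 to 44.0 CPM in the same order. The part of vascular RNA in Kdr was not tested. The call of Rnd1 ended without control replicate 1 or 3, stereotypy replicate 1 or no stereotypy replicate 1 or 2, and that of Dpysl5 without control replicate 1 or 2, stereotypy replicate 2 or no stereotypy replicate 1. That of Kdr ended without control replicate 1 or 2, and that of Mical3 without any 1 library other than control replicate 3 and no stereotypy replicate 3. Of the proteases and regulators 0 of 7 were called in limma. An unadjusted p under 0.05 was reached by 4 of them, with the share of all tested genes at that p not given here.

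For stereotypy against no stereotypy, 6 of the 66 pathway genes were higher and 4 lower, where 6.61% of all tested genes were higher and 3.6% lower. The median log2 difference was 0.00 over the 66 genes and 0.02 over all tested genes. The higher ones were the kinases Rock1 (0.72), Gsk3b (0.44) and Pak2 (0.36), the GTPase Rnd3 (1.45), Vegfa (0.74) and the VEGF receptor Flt1 (1.62), which is also a vascular marker. The lower ones were Crmp1 (-0.35), Gsk3a (-0.32), the plexin-bound GTPase activator Sh3bp1 (-0.31) and the actin-severing protein Cfl1 (-0.31). Rnd3 averaged 19.8 ± 7.93, 6.26 ± 0.780 and 28.3 ± 18.3 CPM in the stereotypy, no stereotypy and control groups (SD, n = 3 each), so it was the group without stereotypy that stood low. Each of these 10 calls also ended in the same 4 analyses with 1 library left out.

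A glial and vascular score, the mean standardised level of astrocyte, oligodendrocyte, precursor, microglia and vascular markers, was 0.75, 0.94 and 0.31 with stereotypy, 0.12, -0.72 and 0.18 without it and -0.47, -0.86 and -0.27 in the controls. All libraries with stereotypy were above all others, and those without it overlapped the controls. Against control 6 of 11 astrocyte markers were called higher with stereotypy and 1 of 11 without it. Between the deleted groups 3 of 11 astrocyte markers were called higher with stereotypy.

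With this score as a covariate 0 members were called for stereotypy or for both groups against control (limma called 3 and 44 genes in all, and 8 and 10 members had an unadjusted p under 0.05). The share of all tested genes at that unadjusted p is not given here. For both groups the log2 change was then 0.66 for Sema3a and 0.50 for Plxna4, against 0.80 and 0.61 without the covariate. It was 0.81 for Sema6a and 0.34 for Sema4g, against 1.33 and 0.64. With stereotypy it was 0.76 for Sema3a, 0.60 for Sema6a and -0.29 for Sema6b, against 0.98, 1.38 and -0.36. The SE of these changes was larger with the covariate, at 0.225 in place of 0.12 for Sema3a with stereotypy. Without stereotypy Sema6a (1.03), Plxna4 (0.76), Sema4g (0.78) and Sema4a (0.74) stayed called. How much of the stereotypy values came from glial RNA was not tested.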

How the data were processed

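Ribosome-bound RNA of 9 libraries in 3 groups of 3 was analysed, which the labels call biological triplicates. The authors deposited CPM values per Ensembl gene; TopHat and GRCm38 are named per the submitters' processing notes. Counter, annotation and strand use: not given in the sources used here. Among values above 0, 100% were whole multiples of 1 read (tolerance 0.1 reads), so whole reads were recovered. Totals were 27103152 to 40578512 reads, and a count of 0 would allow up to 0.0739 to 0.111 CPM (3 reads, counting error only). Symbols, positions and exon lengths came from GENCODE M21 (47310 of 47729 identifiers matched).

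The 13695 genes that reached 1 CPM in 3 or more libraries were fitted on a log2(CPM + 1) scale, on which changes of low genes come out too small, with limma 3.58.1 in R 4.3.3 (1 mean per group, variance trend, 6 residual degrees of freedom), and p-values were adjusted by Benjamini-Hochberg over all of them at a threshold of 0.05. No SD or SE covers more than the spread between libraries. Alternatives were edgeR 4.0.16 (quasi-likelihood) and DESeq2 1.42.0 on the recovered reads, other pseudocounts (0.25 and 4), filters and scaling, a replicate block, covariates of glial and vascular or other-neuron markers, leaving out each library and, added after seeing the data, leaving out control replicate 3 with no stereotypy replicate 3. For both deleted groups against control limma called 784 genes and edgeR 729. The tests were checked on simulated reads. The members and lists were chosen with earlier results of these data known. Values per library are given for each member called in any comparison, for the most abundant member of each role and, chosen after their values were seen, for Plxna1, Plxnb3, Nrp2, Sema5a, Sema3c and Sema3g. Pathway genes are named where called over both deleted groups or between them, at most 4 per list.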

Additional observations from a re-analysis of the deposited data

Results flagged for a closer look

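In 5 genes the change against control differed between the TrkB-deleted groups, by the test of stereotypy against no stereotypy in limma. That test called 10.2% of all tested genes (6.61% higher and 3.6% lower). The log2 change with stereotypy minus that without it was -0.78 for Sema4a, -0.57 for Sema4g, -0.66 for Sema5b, -0.31 for Sema6b and -0.56 for Sema6c. All 5 are membrane ligands. In Sema4a, Sema4g, Sema5b and Sema6c the libraries without stereotypy stood above those of both other groups, and in Sema6b the libraries with stereotypy stood below them. Leaving out replicate 2 or 3 with stereotypy, or replicate 1 or 2 without it, ended all 5 calls. In the whole table the 1398 calls became 1, 0, 0 and 0 in the same order. With the other-neuron covariate 0 members were called among 148 genes, and without the filter 0 among 572.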

How the results depend on the processing

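Of the 18 calls of a member in a comparison, 4 were kept in all 20 alternatives: Sema6a, Sema4a, Sema4g and Plxna4 in mice without stereotypy against control. Over the 18 calls, 282 of 360 alternative values kept the call, 78 lost it and 0 changed sign. For both groups against control 4 members were called among 784 genes in all. With the glial and vascular covariate this was 0 among 44, with the other-neuron covariate 9 among 1316 and with DESeq2 7 among 1326. Without control replicate 3 and no stereotypy replicate 3, chosen after seeing the data, the count was 7 among 696. For stereotypy against control (3 among 699) the glial and vascular covariate gave 0 among 3. The other-neuron covariate gave 5 among 1179 and DESeq2 5 among 1522. For stereotypy against no stereotypy (5 among 1398) the count was 0 among 572 without the filter and 2 among 355 with the glial and vascular covariate. With the other-neuron covariate it was 0 among 148 and with DESeq2 8 among 2343. The cause was not tested. Leaving out 1 library gave 3 to 6 members for both groups, 2 to 4 for stereotypy and 4 to 7 for no stereotypy against control, and 0 to 7 for stereotypy against no stereotypy. Over all genes the counts of 784, 699, 927 and 1398, in the order both groups, stereotypy and no stereotypy against control and stereotypy against no stereotypy, ran from 44 to 1326, 3 to 1522, 317 to 1509 and 0 to 2343. For mice without stereotypy against control, the member count (6) stayed within 1.5 times of it in all alternatives. Samples with the same replicate number deviated together in 4 of 9 pairs (correlation above 0.1, range -0.08 to 0.41). Pairs of different number ran from -0.42 to 0.25, and whether the numbers pair the libraries was not settled. With a replicate block the member counts were 4, 4, 5 and 7, in the order given above for all genes. Over all genes the counts with the block were 880, 917, 1099 and 1788, each above that of the main fit.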
